A study of Ovis aries with 15 samples.

Results

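The genes described here encode the machinery that attaches chromosomes to the spindle and parts them, namely the centromere, the kinetochore, the spindle checkpoint, the mitotic kinases, condensin and cohesin. They were chosen as a list of 50 gene symbols, and a row of the deposited table was taken as a member where its symbol stood on that list. Of the 50 symbols, 47 were found among the 24691 features of the table. CENPC, CENPU and MAD1L1 had no row under those symbols and are not among the members. By their known biology, though with earlier results of these data in view, 30 members were grouped as acting in mitosis only, 11 of the found members as resident at the centromere, and 6 (BUB3 and the cohesin genes SMC1A, SMC3, RAD21, STAG1 and STAG2) as constitutive, with functions outside mitosis as well.

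Mammary parenchyma of first-lambing Romney ewes was sampled by needle biopsy in late pregnancy (day 135 of gestation) and again in lactation (day 15 post partum), and RNA was sequenced as 9 late pregnancy pools and 6 lactation pools. The ewes were daughters of dams fed at sub-maintenance, maintenance or ad libitum levels in early pregnancy and at maintenance afterwards, with 3 late pregnancy and 2 lactation pools from each dam group, and all the ewes themselves were managed and fed alike. Each library held RNA of several ewes, given as 3 per late pregnancy pool and 2 per lactation pool in the series description but as 3 per pool throughout in the study's methods. The same flock was biopsied at each stage, but the labels do not tie a lactation pool to a late pregnancy pool, so the states were compared unpaired, and p-values measure the spread between pools, not between ewes.

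A kinetochore is built on each centromere, where nucleosomes carrying the histone variant CENPA are bound by the constitutive centromere-associated network (the other CENP genes of the centromere group). On entry to mitosis the outer kinetochore is added and binds spindle microtubules, while the spindle checkpoint holds back CDC20 and the anaphase-promoting complex until every chromosome is attached. Separase (ESPL1) then cuts the cohesin ring that ties sister chromatids, which condensin has compacted. Transcripts of most mitotic genes accumulate only in dividing cells, whereas cohesin also folds chromatin into loops in cells that do not divide. In the mammary gland, the epithelium proliferates through pregnancy and secretes milk in lactation.

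Counts were reads on exons, 6471237 to 16898986 per library in late pregnancy and 9014506 to 24001031 in lactation. Levels are given as CPM, counts relative to the library size after scaling by the trimmed mean of M values (TMM), with the SD between the 9 late pregnancy or 6 lactation pools, and changes as log2 of lactation over late pregnancy with their SE. Genes of which the edgeR quasi-likelihood test gave a Benjamini-Hochberg adjusted p under 0.05 are written as having changed. Summed over lists of marker genes, luminal epithelial markers (8 genes, KRT19 and EPCAM among them) stood at 1677 ± 119 CPM in late pregnancy and 2504 ± 92.8 CPM in lactation, and myoepithelial markers (6 genes) at 577 ± 14.4 and 544 ± 89.1 CPM, so that markers of the labelled tissue were present in either state. KRT19 (622 and 947 CPM) and ELF5 (629 and 1100 CPM) made up most of the luminal sum. Of the 8 luminal genes 4 rose, 1 fell and 3 did not pass the test. Of the 6 myoepithelial genes 2 rose, 2 fell and 2 did not pass.

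Mitosis-only genes were lower in lactation without exception, whereas the constitutive genes moved little and in either direction. All 30 mitosis-only members fell, by a log2 change whose median was -2.71 and which ranged from -4.82 (SGOL1) to -0.37 (NCAPD2), and 28 of them fell by more than 2-fold. Of the 11 centromere-resident members 9 fell, CENPO rose and CENPI did not pass the test, with a median of -2.10. Of the 6 constitutive members 3 fell, 2 rose and STAG2 did not pass the test, with a median of -0.11 and a range from -0.57 to 0.50. With limma on log2 of the quantile-normalized RPKM plus 1, a scale that understates the change of genes with low values, the medians were -1.20, -1.02 and -0.16, and 19 of the 30 mitosis-only genes fell by more than 2-fold. Over all 47 found members, 42 fell, 3 rose and 2 did not pass, and the median change was -2.23. Among all 13345 genes tested, 35.2% fell, 33.1% rose, 13.0% fell by more than 2-fold, and the median change was -0.03. The pools of the states did not overlap for 39 of the 47 members, against 40.2% of all genes tested.

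The summed level of the mitosis-only genes showed the same division in every library. Together these 30 genes held 362 ± 56.0 CPM in late pregnancy (277 to 442, median 361) and 110 ± 18.3 CPM in lactation (89.5 to 138, median 110). The lowest late pregnancy pool was thus above the highest lactation pool. NCAPD2, whose log2 change was only -0.37, held 46.7 CPM of the late pregnancy mean and 36 CPM of the lactation mean. The 5 cohesin genes held 371 ± 19.4 CPM (345 to 404) and 374 ± 21.0 CPM (347 to 407), ranges that cover nearly the same span. Expressed as a percentage of the cohesin sum in the same library, a ratio that does not depend on how libraries are scaled, mitosis-only transcripts came to 77.3 to 118% in late pregnancy and 23.8 to 38.2% in lactation. Because biopsies are mixtures, fewer cells of a type and less RNA per cell cannot be told apart.

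**Figure D1:**
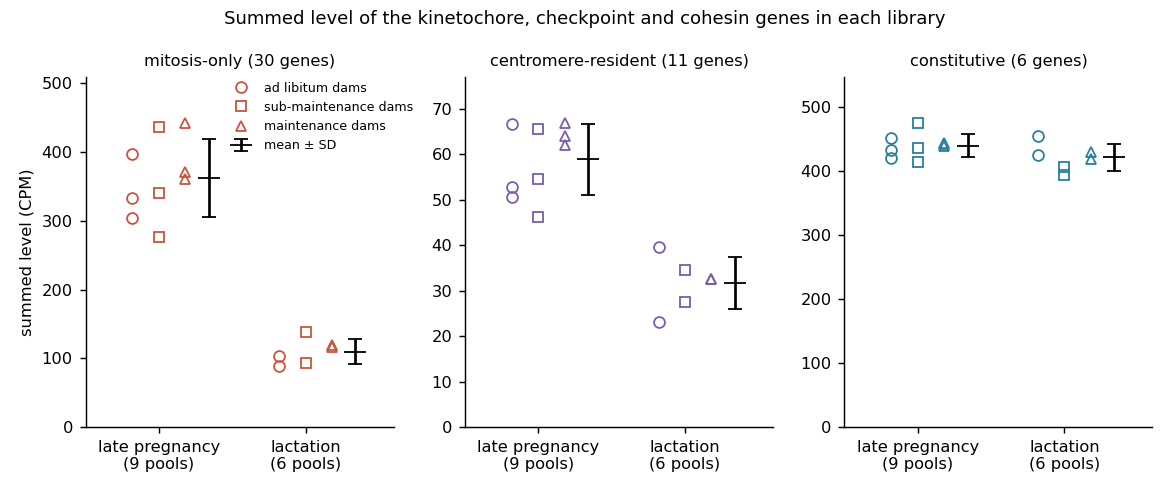
Summed level in CPM (vertical axes, from 0) of the 30 mitosis-only, 11 centromere-resident and 6 constitutive genes in each of the 9 late pregnancy and 6 lactation pools. Open symbols are single pools, shaped by the feed of the ewes' dams, and bars are the mean ± SD. Mitosis-only sums lie between 277 and 442 CPM in late pregnancy and between 89.5 and 138 CPM in lactation, while the constitutive sums overlap.

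The filter on low counts bears on these numbers. All 47 found members passed it, but only 17 would have passed on the lactation pools alone (10 mitosis-only, 1 centromere-resident and all 6 constitutive), and 29 passed only through late pregnancy. Admission through 1 state favours genes that are higher in it, so the counts and medians above describe these members and are not offered as support. CENPI was admitted in that way as well. Of the 18 members with at least 10 reads in every library, 14 fell and 2 rose. In that fit 7216 of all 10079 genes tested were called, in either direction, and the median change was -0.01. All 11 mitosis-only members among those 18 fell, with a median of -1.42, against a median of -0.19 for the 6 constitutive members in that fit.

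At the centromere, the largest fall was that of CENPA, which marks the site where the kinetochore forms (chromosome 3, 33803471 to 33809513, in the sheep assembly the submitters' processing notes name as Oar_v3.1). CENPA ranged from 8.39 to 17.7 CPM in late pregnancy (median 12.8) and from 0.113 to 0.957 CPM in lactation (median 0.559). The lowest late pregnancy pool was far above every lactation pool, and the log2 change was -4.38 ± 0.29 (adjusted p = 7.3e-11). Subunits of the centromere-associated network fell less. CENPW and CENPT, which together form a histone-fold complex on centromeric DNA, fell by 2.85 and 2.23 on the log2 scale. CENPH and CENPK, partners in another subcomplex, fell by 2.26 and 2.75, and CENPM, which joins them there, fell by 2.10. CENPL and CENPN, which read the CENPA nucleosome as a pair, fell by 1.77 and 1.84. The adjusted p-values of these 7 genes lay between 1.5e-08 and 3.5e-05.

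CENPI, another subunit of the CENPH complex, held 2.19 ± 0.382 CPM in late pregnancy and 1.77 ± 0.595 CPM in lactation. Its pools overlapped, and its log2 change of -0.28 ± 0.20 on exon reads did not pass the test (adjusted p = 0.22). Its reads outside the exons, described below, did fall. CENPO was the only centromere gene that rose. It ranged from 12.5 to 17.4 CPM in late pregnancy (median 14.6) and from 17.1 to 26.4 CPM in lactation (median 21.1). The highest late pregnancy pool reached just above the lowest lactation pool, and the log2 change was 0.56 ± 0.09 (adjusted p = 2.1e-05). CENPO (chromosome 3, 32162219 to 32176306) belongs to a subcomplex with CENPQ, CENPP, CENPU and CENPR. CENPQ, a member of the list, fell by 0.65 on the log2 scale (adjusted p = 0.008), with overlapping pools. Among the other partners, chosen for mention after their values were seen, CENPP fell by 1.66, ITGB3BP (the symbol of CENPR in the table) by 0.45, and MLF1IP, an older symbol of CENPU, by 0.49 (4.52 CPM in lactation against 6.28 CPM in late pregnancy). No other annotated feature overlapped CENPO, and 98.6% of its exon reads were uniquely placed.

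**Figure D2:**
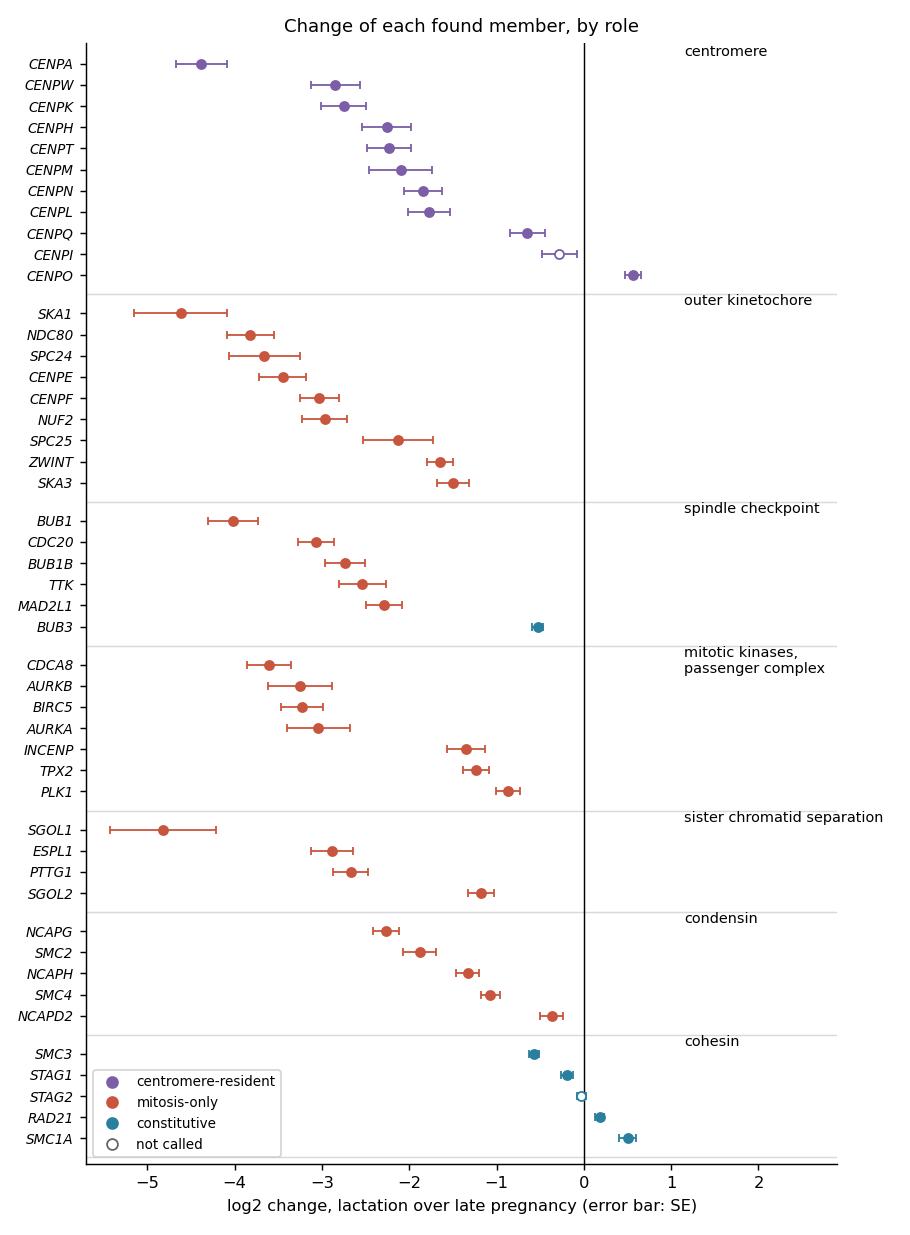
Log2 change of lactation over late pregnancy (horizontal axis, with SE as error bars) for each of the 47 found members, ordered within 7 roles and coloured by class. Filled points passed the test (edgeR, adjusted p under 0.05) and open points did not. The mitosis-only genes lie between -4.82 and -0.37, the cohesin genes and BUB3 between -0.57 and 0.50, and CENPO is the centromere gene on the right of 0.

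The outer kinetochore genes all fell, with a median of -3.03. CENPF, a large kinetochore protein that accumulates before mitosis, had the highest level of the group per kilobase of exon (4.21 CPM per kb in late pregnancy), with ZWINT close behind at 4.18. CENPF ranged from 27.0 to 59.8 CPM in late pregnancy (median 40.8) and from 2.42 to 8.41 CPM in lactation (median 4.66). These ranges were well apart, and the log2 change was -3.03 ± 0.22 (adjusted p = 2.9e-10). The 4 subunits of the NDC80 complex, the rod that grips microtubules, changed by -3.82 (NDC80), -2.97 (NUF2), -3.66 (SPC24) and -2.13 (SPC25), all called. Pools of the states overlapped for SPC25 alone among the 9 outer kinetochore genes, since the highest lactation pool reached 1.41 CPM and the lowest late pregnancy pool 1.34 CPM. CENPE, a kinesin that moves chromosomes to the spindle equator, fell by 3.45, and ZWINT, which binds the kinetochore scaffold, fell by 1.65.

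SKA1 and SKA3, which help kinetochores hold on to shortening microtubules, differed in the size of their fall. SKA1 ranged from 1.01 to 2.66 CPM in late pregnancy (median 1.94) and from 0 to 0.22 CPM in lactation (median 0.0435). No lactation pool came near the lowest late pregnancy pool, and 3 reads in all were counted in lactation against 359 in late pregnancy. The pooled level was 27.3 times higher in late pregnancy, with an exact Poisson 95% interval of 9.35 to 132 that covers counting error only. SKA3 fell by 1.5 on the log2 scale (adjusted p = 3.1e-07), and 68.6% of its exon reads were uniquely placed, so part of its level rests on reads shared with another locus.

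Among the spindle checkpoint genes, BUB1, a kinase that recruits the other checkpoint proteins, fell most. BUB1 ranged from 5.13 to 11.6 CPM in late pregnancy (median 8.39) and from 0.113 to 0.87 CPM in lactation (median 0.549), with a log2 change of -4.02 ± 0.29 (adjusted p = 1.9e-10). The states were widely separated. CDC20, the activator of the anaphase-promoting complex that the checkpoint restrains, fell by 3.07 from 10.6 ± 2.19 to 1.22 ± 0.331 CPM. BUB1B, TTK and MAD2L1, which build or signal the inhibitory complex, fell by 2.74, 2.54 and 2.29. MAD2L1 was the most abundant of the mitosis-only checkpoint genes per kilobase, at 8.30 CPM per kb in late pregnancy and 1.62 in lactation.

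BUB3, the constitutive member of the checkpoint, was set apart by its level and by the small size of its change. Its level was 27.3 CPM per kb in late pregnancy and 18.9 in lactation. BUB3 ranged from 60.6 to 75.4 CPM in late pregnancy (median 70.5) and from 44.6 to 54.9 CPM in lactation (median 47.6). The ranges did not meet, and the log2 change was -0.53 ± 0.06 (adjusted p = 1.0e-07), smaller than that of each of the 5 other checkpoint genes found.

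The mitotic kinases and the chromosomal passenger complex fell as a group but unevenly. BIRC5, or survivin, which brings the passenger complex to the centromere, was the most abundant per kilobase in late pregnancy, at 8.70 CPM per kb. BIRC5 ranged from 10.5 to 18.9 CPM in late pregnancy (median 14.3) and from 0.44 to 2.44 CPM in lactation (median 1.46), with a log2 change of -3.23 ± 0.24 (adjusted p = 2.5e-10). CDCA8 (borealin), its binding partner, showed the largest fall, from 5.89 to 11.4 CPM in late pregnancy (median 9.03) to between 0.22 and 1.09 CPM in lactation (median 0.69). The pools of either gene were separate by state, and the log2 change of CDCA8 was -3.61 ± 0.25 (adjusted p = 1.1e-10). AURKB, the kinase of the complex, fell by 3.25, and INCENP, its scaffold, fell by only 1.35. AURKA, the kinase of the spindle poles, fell by 3.04, whereas TPX2, its activator, fell by 1.24 and remained at 8.78 ± 1.80 CPM in lactation. PLK1, a kinase needed from mitotic entry to cytokinesis, changed least. It ranged from 6.58 to 11.7 CPM in late pregnancy (median 9.51) and from 4.0 to 6.54 CPM in lactation (median 4.71), so that the highest lactation pool lay just under the lowest late pregnancy pool, and its log2 change was -0.87 ± 0.14 (adjusted p = 1.5e-05).

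Genes of sister chromatid separation fell by between 1.18 and 4.82 on the log2 scale. PTTG1, or securin, the inhibitor of separase, was the most abundant per kilobase (7.88 CPM per kb in late pregnancy, 1.12 in lactation). It ranged from 4.85 to 7.30 CPM in late pregnancy (median 6.28) and from 0.381 to 1.48 CPM in lactation (median 0.791), with a log2 change of -2.67 ± 0.20 (adjusted p = 3.3e-10). Separase itself, ESPL1, fell by 2.89. The shugoshins protect centromeric cohesin until anaphase, and they differed in level and in change. SGOL1 ranged from 0.366 to 1.1 CPM in late pregnancy (median 0.887), and 1 read was counted in the 6 lactation pools together against 168 in the 9 late pregnancy pools. The pooled ratio was 38.4, with a 95% interval of 6.89 to 1515 from counting error alone, so its fitted log2 change of -4.82 is poorly bounded. Of its exon reads 77.5% were uniquely placed, and its more numerous reads outside the exons, described below, fell less. SGOL2 fell by 1.18 and stayed at 5.04 ± 1.75 CPM in lactation.

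Condensin, the complex that compacts mitotic chromosomes, fell least among the mitosis-only roles, with a median of -1.33. NCAPG, a condensin I subunit, fell most, from between 13.1 and 20.7 CPM (median 18.2) to between 2.25 and 4.87 CPM (median 3.58), a log2 change of -2.27 ± 0.15 (adjusted p = 7.2e-11) with no overlap. The core subunits SMC2 and SMC4 fell by 1.88 and 1.07, and NCAPH, which closes the ring, fell by 1.33. NCAPD2, the most abundant condensin gene per kilobase (10.0 CPM per kb in late pregnancy), ranged from 39.8 to 60.8 CPM in late pregnancy (median 44.5) and from 27.3 to 50.3 CPM in lactation (median 31.1). The pools overlapped, and its log2 change of -0.37 ± 0.13 (adjusted p = 0.019) was not called without ad libitum lactation pool 2 (-0.32) or without maintenance lactation pool 1 (-0.29). NCAPD2 was thus the only mitosis-only member with a smaller estimated fall than the constitutive genes SMC3 and BUB3.

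The 5 cohesin genes had a median change of -0.03, that of all genes. RAD21, the subunit cut by separase, had the highest level of all members per kilobase (36.4 CPM per kb in late pregnancy and 41.2 in lactation) and lies at chromosome 9, 60259463 to 60286925. It ranged from 127 to 141 CPM in late pregnancy (median 135) and from 143 to 165 CPM in lactation (median 148). The ranges did not overlap, yet the log2 change was only 0.18 ± 0.05 (adjusted p = 0.0025), and limma on the quantile-normalized values gave -0.08, so its direction depends on the processing. SMC1A, which forms the core of the ring with SMC3, rose by 0.50 ± 0.10 on the log2 scale (adjusted p = 1.3e-04). It ranged from 28.3 to 47.4 CPM in late pregnancy (median 41.7) and from 47.0 to 67.2 CPM in lactation (median 56.6), so that the lowest lactation pool lay just below the highest late pregnancy pools.

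SMC3 moved the opposite way. SMC3 ranged from 69.9 to 85.5 CPM in late pregnancy (median 78.9) and from 42.8 to 59.6 CPM in lactation (median 53.4), with no overlap and a log2 change of -0.57 ± 0.06 (adjusted p = 1.3e-07). The STAG subunits alternate in the complex. STAG2, the more abundant, ranged from 79.7 to 94.7 CPM in late pregnancy (median 85.2) and from 76.2 to 91.6 CPM in lactation (median 84.4), overlapping over most of the range, with a log2 change of -0.03 ± 0.05 (adjusted p = 0.6). STAG1 ranged from 28.5 to 36.9 CPM (median 32.0) and from 24.9 to 30.8 CPM (median 28.8). Its log2 change of -0.19 ± 0.07 (adjusted p = 0.021) was not called when either sub-maintenance lactation pool was left out (-0.16 each) or on reads that span exon-exon junctions (-0.03).

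**Figure D3:**
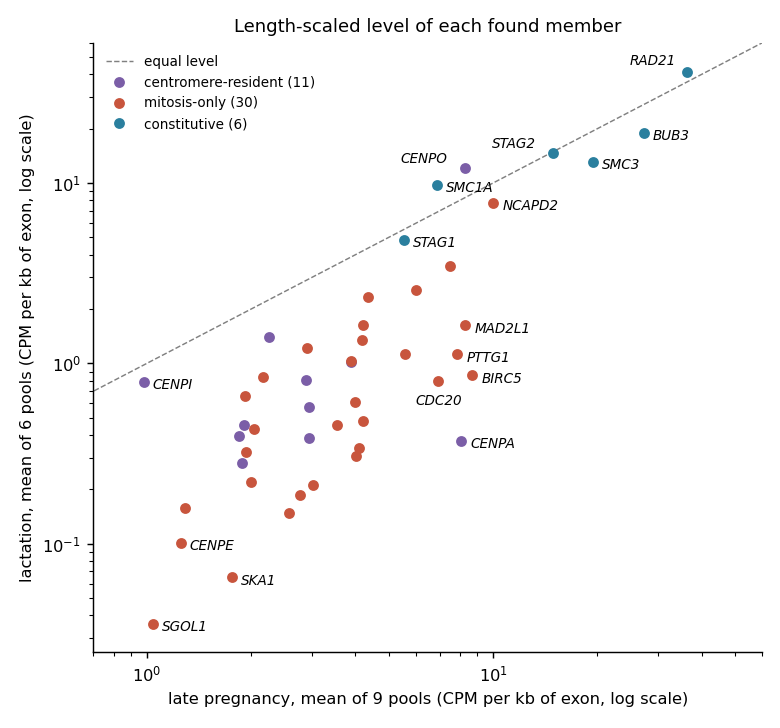
Mean level per kilobase of exon in late pregnancy (horizontal axis, 9 pools) and lactation (vertical axis, 6 pools), both in CPM per kb on log scales, for each found member. Constitutive genes and CENPO lie near the dashed line of equal level, RAD21 highest at 36.4 and 41.2. CENPI (0.979 and 0.79) and the mitosis-only gene NCAPD2 (10.0 and 7.73) lie near it as well. Most mitosis-only genes lie well under that line, SGOL1 lowest at 1.04 and 0.0358.

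These directions are relative to the bulk of genes, which TMM scaling sets near no change. Scaling by library size alone shifted the median of all genes to -1.94, and all 47 members were then called lower, among them CENPO (-1.36), SMC1A (-1.41) and RAD21 (-1.73). Relative to that median these 3 genes stood at 0.58, 0.53 and 0.20, and relative to the median under TMM at 0.59, 0.53 and 0.21. Upper quartile scaling moved the median to -0.18, and RAD21 (0.03) was then not called while STAG2 (-0.18) was.

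Reads on a gene but outside its annotated exons, called intron reads here, gave another readout of the same genes that did not enter the choice of members. Of the 37 members with enough such reads to be tested, 26 fell and 2 rose, and the median of their log2 changes was -1.32. The filter again bears on this, since 28 of the 37 passed it only through late pregnancy, among them 20 of 22 mitosis-only genes, and their counts are a description only. Of the 9 that would have passed on lactation alone, 3 fell (BUB3, SMC3 and the condensin gene NCAPH) and 2 rose. Without a filter, all 47 members were tested and 35 fell and 2 rose. Among all 10344 genes tested on intron reads, 29.0% fell and 29.0% rose, and the median was -0.01. Mitosis-only genes fell in 17 of 22 cases (median -1.67), centromere-resident genes in 7 of 9 (median -1.98), and constitutive genes in 2 of 6 (median 0.09). The intron change of CENPF (-2.94) was near its exon change (-3.03), but for other members the readouts differed in size in either direction. Smaller on introns were CENPA at -2.75 against -4.38, CENPE at -1.84 against -3.45, CDCA8 at -2.21 against -3.61 and BUB1B at -1.48 against -2.74. SGOL1, with 1 exon read in lactation, changed by -2.87 ± 0.29 on introns (adjusted p = 9.3e-09) against -4.82 on exons. Larger on introns were CENPM at -2.66 against -2.10, SGOL2 at -1.54 against -1.18 and AURKB (2 intron reads in lactation) at -4.19 against -3.25. BUB3 and SMC3, the constitutive genes with the largest exon falls, fell more on introns, by 0.92 and 0.69 against 0.53 and 0.57. CENPO rose by 0.56 (adjusted p = 0.012), as on exons. CENPI, which had not passed the test on exons, changed by -0.71 ± 0.26 on introns (adjusted p = 0.023). BIRC5 had 181 intron reads in late pregnancy and 0 in lactation, at least 13.8-fold lower against 3 reads over the group.

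For 5 mitosis-only genes the intron reads did not pass the test although the exon reads had fallen. The intron log2 changes were -0.01 ± 0.19 for PLK1 (adjusted p = 0.99), 0.05 ± 0.24 for INCENP (adjusted p = 0.87), -0.20 ± 0.23 for SKA3, -0.53 ± 0.32 for SMC2 and -0.11 ± 0.12 for NCAPD2, against exon changes of -0.87, -1.35, -1.5, -1.88 and -0.37. PLK1 and INCENP were among the smaller exon changes of their group as well. STAG1 rose on intron reads (0.47 ± 0.10, adjusted p = 3.9e-04) while its exon change was -0.19. The difference between the readouts was not itself tested. SMC4 shares 18678 bases with IFT80, and without known strand its intron reads (-0.83) cannot be separated from those of that gene.

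**Figure D4:**
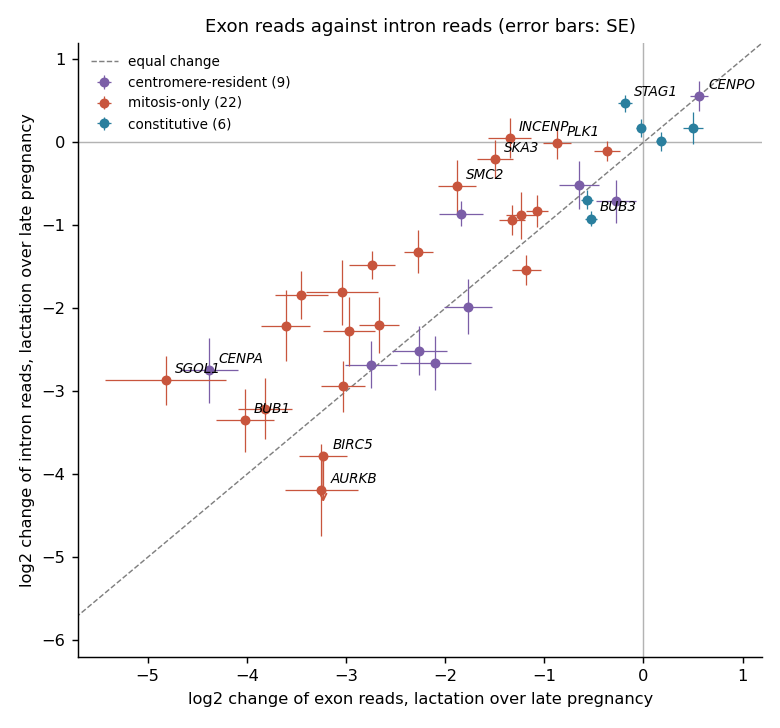
Log2 change of lactation over late pregnancy on exon reads (horizontal axis) and on intron reads (vertical axis) for the 37 members tested on both, with SE as error bars. Most points fall along or above the dashed line of equal change, PLK1 and INCENP lie at -0.01 and 0.05 on the vertical axis, and BIRC5, with 0 intron reads in lactation, is drawn at its bound of -3.78 with an arrow.

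Within late pregnancy, the mitosis-only genes tended to be high or low in the same pools. Sub-maintenance pool 1 had the lowest level of 20 of the 30 genes and ad libitum pool 2 of 9, whereas maintenance pool 3 had the highest level of 13 and sub-maintenance pool 2 of 9. Sub-maintenance pool 1 also had the lowest summed fibroblast markers (359 CPM of a range up to 639) and the highest summed luminal markers (1833 CPM). Among late pregnancy pools it was also highest for summed macrophage (191 CPM) and adipocyte markers (427 CPM), and lowest for myoepithelial markers (555 CPM). The part of these cell types in the result was not tested. Leaving sub-maintenance pool 1 out gave a median change of -2.76 for the mitosis-only genes, and all 30 stayed called. In lactation, 12 of the 30 genes were highest in maintenance pool 1 and 10 in sub-maintenance pool 1. Between 3 and 12 mitosis-only genes had at most 3 reads in a lactation library, and none had so few in late pregnancy, so the order of lactation pools rests on few reads for these genes.

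No member passed a test of the feed of the ewes' dams. The quasi-likelihood test across the 3 dam groups in late pregnancy called 0 of 13747 genes (0%), and no member had an unadjusted p under 0.05, against 571 genes (4.15%) over the table. Leaving out 1 late pregnancy pool gave 0 to 9 members with an unadjusted p under 0.05, and still no member called. The most were found without sub-maintenance pool 2 (9 of 47, against 5.3% of all genes tested). Without ad libitum pool 3 there were 6 (against 4.35%), and without sub-maintenance pool 1 there were 5 (against 5.92%). DESeq2 called 20 genes, none of them a member. For the interaction of state and dam group, 0 of 14073 genes were called (0%), and BUB1B alone among the members had an unadjusted p under 0.05 (0.044), against 913 genes (6.49%). DESeq2 called 21 genes there, again no member. With 3 pools per group, small differences could not be detected. The difference between the states was present within each dam group, where the median log2 ratio of means of the mitosis-only genes was -2.76 (ad libitum), -2.71 (maintenance) and -2.64 (sub-maintenance), and within the lane named in the column header, although each library was run on more than one lane, at -2.58 (lane 7) and -3.00 (lane 8). For the 10 mitosis-only genes that pass the filter on lactation alone, the medians were -1.47, -1.40 and -1.39 in the dam groups and -1.20 and -1.43 in the lanes, and all 10 were lower in each of these 5 subsets. Of all 13345 genes tested, 6891 to 7030 were lower in these subsets, with medians from -0.05 to -0.02. The median of the cohesin genes lay between -0.11 and 0.05. All sub-maintenance pools carried lane 8 in the header and none lane 7, so dam group and header lane are partly confounded.

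Genes that work with the members were taken from 8 further lists of known function. Among all 13345 genes tested, 35.2% fell, 33.1% rose and 13.0% fell by more than 2-fold. For spindle and cytokinesis, 9 of 10 genes fell, KIF11, the motor that separates spindle poles, by 3.66, while FZR1, an activator of the anaphase-promoting complex outside mitosis, rose by 0.22. Of 12 tested centromere assembly genes 10 fell and 1 rose, with CASC5, the kinetochore scaffold, at -3.32 and MIS12, a scaffold subunit, at 0.41. Their median was -0.90, and 6 of them fell by more than 2-fold. Of 7 further outer kinetochore and checkpoint genes 5 fell and 1 rose, with KNTC1 at -2.40 and ZW10 at 0.16, subunits of the same dynein-recruiting complex.

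Factors of the ring complexes and of the anaphase-promoting complex moved in either direction, as did all genes tested, of which 35.2% fell and 33.1% rose. Among 8 genes, namely CTCF, which positions cohesin on chromatin, and factors that load, hold, release or acetylate it, 2 fell and 2 rose, with ESCO2, the acetyltransferase of S phase, at -2.13 and WAPAL, which opens the ring, at 0.72. Among 6 genes of condensin II, SMC5/6 and a related SMC protein, 4 fell and 1 rose, with NCAPG2 at -2.19 and SMC5 at 0.24. Of 12 subunits of the anaphase-promoting complex 3 fell and 1 rose, between -0.42 (CDC23) and 0.19 (CDC27). The meiotic cohesin subunits STAG3 and REC8 rose by 1.14 and 0.87 from 6.57 and 1.92 CPM in late pregnancy, and SYCP3, of the meiotic chromosome axis, fell by 0.59, the 3 genes tested of 7 found in that list. Of 17 proliferation genes and their regulators 12 fell and 1 rose, between -3.60 (CCNA2, a cyclin) and 0.32 (E2F4, a transcription factor of quiescent cells). MKI67 and TOP2A, common markers of cycling cells, fell by 3.15 and 3.28.

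Markers of some other cell types moved in the same direction as the mitosis-only genes, where 35.2% of all genes tested fell. All 6 tested T cell markers fell, with a median of -1.61 and a sum of 49.6 ± 6.59 CPM in late pregnancy (38.9 to 62.2) and 15.5 ± 2.61 CPM in lactation (12.7 to 19.9). Macrophage markers fell for 4 of 6 genes (summed, 142 to 191 CPM in late pregnancy and 70.5 to 101 CPM in lactation). Fibroblast markers fell for 4 of 5 (359 to 639 and 231 to 379 CPM), and endothelial markers for 4 of 4 (156 to 209 and 91.9 to 132 CPM). Neutrophil markers (1 of 2 tested rose) stood at 1.08 ± 0.279 and 13.8 ± 4.55 CPM summed. MPO made up 12.9 CPM of their lactation sum. B and plasma cell markers stood at 4.13 ± 0.491 and 6.80 ± 1.83 CPM. Of the 3 tested, CD79A fell by 1.27 and MZB1 rose by 2.54. Adipocyte markers stood at 333 ± 64.3 and 341 ± 36.9 CPM, FABP4 alone making up 322 and 333 CPM. None of the 3 adipocyte markers tested passed, with ADIPOQ at -0.35, CIDEC at -0.61 and FABP4 at 0.05. The part of these cell types in the changes of the members was not tested.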

How the data were processed

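The authors sequenced TruSeq RNA libraries in paired-end reads on an Illumina Hi-Seq and counted reads per gene in CLC Genomics Workbench. The submitters' processing notes name the assembly Oar_v3.1, while the study's methods give another release number. The deposited counts are the authors' reads per gene, in all, on exons and across exon-exon junctions, without normalization. Deposited RPKM are exon reads per kilobase, scaled to the reads on genes, and the authors' normalized values are RPKM after quantile normalization. The authors' deposited fold changes and p-values of their own comparison were not used.

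Here, exon reads (gene reads where no transcript is annotated) were tested with edgeR 4.0.16 (R 4.3.3): filterByExpr by state, TMM, quasi-likelihood F-test without covariates, Benjamini-Hochberg over all tested genes, called at an adjusted p under 0.05. Intron reads are gene reads less exon reads. Dam groups were tested over 9 late pregnancy libraries, and the interaction over all 15. Alternatives included DESeq2 1.42.0 and limma 3.58.1 on log2 of the quantile-normalized RPKM plus 1. The scripts were tested on simulated counts. The closest pair of libraries of a state differed by 1.96 times sampling noise. Intervals cover counting error only.

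The members, their classes and all gene lists were chosen with earlier results of these data known. Values by pool are given for the member of each role with the highest length-scaled level, the largest fall and the largest rise, for members at the floor of 3 reads, for every constitutive member and for members changed against most of their class. In each partner list the genes named are the largest fall and rise that passed the test, plus MKI67 and TOP2A. REC8, CENPP, ITGB3BP, MLF1IP, OIP5 and HJURP fall outside this rule and were chosen after their values were seen. Other named members are given by their change.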

Additional observations from a re-analysis of the deposited data

Results flagged for a closer look

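In 4 of 94 groups of pools examined, the pool at one end of the range stood apart from the rest by Dixon's criterion, and chance alone gives about 1 in 20 such groups. All 4 were high lactation values of genes with few reads. CENPK stood at 0.952 CPM in sub-maintenance lactation pool 2 (5 reads), against 0.451 CPM in the next pool. NDC80 stood at 1.22 CPM in sub-maintenance lactation pool 1 (9 reads), against 0.44 CPM. SPC24 stood at 0.814 CPM in the same pool (6 reads), against 0.225 CPM. SGOL1 stood at 0.176 CPM in ad libitum lactation pool 2 (1 read), against 0 in the others. Each of these values was below the lowest late pregnancy pool of its gene.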

How the results depend on the processing

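Of 116 recomputed counts of called members, 113 stayed within 1.5 times the count reported. The count lower in lactation was 14 with at least 10 reads in every library, where 18 members were tested. The count higher was 0 with library size only, and the count higher on intron reads was 1 without maintenance lactation pool 2. Leaving out 1 library at a time gave 41 to 42 members lower and 3 higher, 26 to 27 lower and 1 to 2 higher on intron reads, and 0 for dam group and interaction. Directions turned for CENPO (-1.36), SMC1A (-1.41) and RAD21 (-1.73) with library size only, and for RAD21 on quantile-normalized RPKM (-0.08). The mitosis-only median there was -1.20 against -2.71, and the change of CENPA -2.69 against -4.38. RAD21 also lost its call with at least 10 reads in every library (0.09) and with upper quartile scaling (0.03). STAG2 was called lower with upper quartile scaling (-0.18), with limma (-0.15) and with library size only (-1.94), and CENPI with library size only (-2.19). The cause of these changes was not tested beyond the shift of the median of all genes. Reads across exon-exon junctions, an alternative chosen after the data were seen, gave 40 lower and 3 higher of 46 tested. In that fit 6913 of all 10748 genes tested were called, in either direction, and the median change was -0.03.

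Pools with the same number did not deviate together (correlations from -0.0232 to 0.0651), so the numbers are not taken to pair samples. With the replicate block, 41 members were lower and 3 higher, and 8464 in place of 9122 genes were called. STAG1 (-0.19) was then not called. In lactation, where 3 to 12 mitosis-only genes had at most 3 reads per library, depth limits what can be said of differences between pools.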

Other observations

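OIP5, which recruits CENPA to centromeres, was chosen for mention after its values were seen. Its exon reads stood at 7.14 ± 0.844 CPM in late pregnancy and 8.53 ± 1.58 CPM in lactation (log2 change 0.23 ± 0.11, adjusted p = 0.068), whereas its reads across exon-exon junctions changed by -2.98. HJURP, the chaperone of CENPA, fell by 2.24 on exon reads and by 2.70 on junction reads. Among the 46 members tested on junction reads, the largest gap between the readouts was that of CDCA8, at -3.61 and -4.75. The difference between the readouts was not tested.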
